A study of Homo sapiens with 8 samples.

Results

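The genes described here encode the machinery that carries newly made secretory proteins into the endoplasmic reticulum (ER) and between the ER and the Golgi apparatus. They comprise the signal recognition particle (SRP), the ER translocon, signal peptidase, the COPII and COPI vesicle coats with the factors that recruit them, and the receptors that sort cargo into vesicles. The set was defined by a list of 57 gene symbols, and 55 of them had a value among the 18508 genes of the deposited table, 1 value per gene and array. COPG2 and ARF1 were not analysed here. The values were log2 expression from Clariom S human arrays, on which short probes report the transcripts of most protein-coding genes. The cells were ASC52telo, a single line of human adipose-derived mesenchymal stem cells (ADSCs) immortalized with the telomerase gene hTERT. All groups were deprived of serum for 24 h. The SAHA group (3 arrays) then received 1000 nM SAHA, a hydroxamic acid inhibitor of histone deacetylases, for 72 h. The EtOH group (2 arrays) received the ethanol in which SAHA was dissolved, and the untreated group (3 arrays) received neither. Per the study's methods, all cells had fresh medium for 24 h after the treatment, before RNA was taken. A further EtOH array was left out by the authors after quality control. The samples are labelled as biological replicates of this 1 line, so the spread between arrays holds no differences between lines or donors.

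Correlations between arrays over all genes were from 0.958 to 0.984, and array medians lay between 0.26 and 0.33. All 9 mesenchymal stem cell markers examined, among them THY1, ENG and COL1A2, were above every array median on every array. Of the markers of other cell types, 0 of 5 blood cell, 0 of 3 epithelial and 0 of 4 adipocyte genes were so, as was 1 of 4 endothelial genes (VWF). The zero point of the log2 scale is not known, so a value was read against the same gene on other arrays and no gene's level was set above or below another's, apart from the check against the array medians. In every gene the means over the arrays of replicate 1, of replicate 2 and of replicate 3 were equal within 1e-10, so differences between the replicate numbers had been taken out before deposit. The spread between arrays, and each SD given below, leaves out these differences and is not the full spread between cultures.

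A protein destined for secretion is recognised by SRP as its signal sequence leaves the ribosome, is handed to the SEC61 channel in the ER membrane, and has its signal sequence removed by signal peptidase. Folded cargo leaves the ER at exit sites, where the GTPase SAR1 recruits the inner coat of SEC23 and SEC24 and the outer coat of SEC13 and SEC31. Coatomer (COPI), recruited to Golgi membranes by ARF GTPases, returns escaped ER proteins and cargo receptors. Fibroblast-like cells such as ADSCs rely on this route for the secretion of collagens and other matrix proteins. Many genes of the route are known targets of the unfolded protein response, in which the transcription factors XBP1 and ATF6 bind short elements near gene starts.

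The start regions of the genes were examined first, because they show a sequence feature that the list of symbols did not use. RefSeq promoters of build GRCh38.p14, from 250 bases before to 50 bases after an annotated start, were at hand for 50 of the 55 genes (68 promoters). The letters TGACGTGG, the core of the unfolded protein response element, were searched on both strands. They were found in 12 of the 50 genes (24.0%), against 1.08% of the 14415 genes of the array with a promoter at hand and 0.927% of all 27305 genes with one. There were 13 sites in the 12 genes, which spanned the COPII coat (SEC23A and SEC24A), ER exit sites (SEC16A and SEC16B), the COPI coat (COPA, COPB1 and COPB2, the last with 2 sites), its recruitment (GBF1), the translocon (SEC62 and SSR3), SRP (SRP19) and the KDEL receptors (KDELR3). The centres of 8 sites lay before the start and all were within 192 bases of it. Sites on the gene's own strand numbered 4, and 9 were on the opposite strand. The following windows of 30 bases show 8 of these sites, chosen to span the kinds of machinery that hold one, 5′ to 3′ on the strand that reads TGACGTGG, with these letters in capitals.
SEC23A, COPII inner coat, chr14:39103221-39103250, minus strand: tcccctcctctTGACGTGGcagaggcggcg
SEC16A, exit site scaffold, chr9:136484707-136484736, plus strand: ttcagtccggcTGACGTGGcaccagggcca
COPA, COPI coat, chr1:160343227-160343256, minus strand: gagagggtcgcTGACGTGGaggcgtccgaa
COPB1, COPI coat, chr11:14499841-14499870, plus strand: gagtccttggcTGACGTGGaagggggtggg
GBF1, ARF activator, chr10:102245526-102245555, minus strand: tgtcagctcacTGACGTGGtaactagcctc
SSR3, translocon-associated protein, chr3:156554148-156554177, plus strand: agtttccttgcTGACGTGGctgttatcaga
SRP19, SRP subunit, chr5:112861164-112861193, minus strand: tctctagtctcTGACGTGGcatgaagactt
KDELR3, KDEL receptor, chr22:38468039-38468068, minus strand: tggccgggcggTGACGTGGccagggcggcc

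Other motifs were counted in the same way. The letters CCACG, read on both strands and contained in the reverse complement of TGACGTGG, were in 84.0% of the 50 genes and in 50.6% of genes of the array. CCAAT, a general promoter element, was in 44.0% against 42.4%. TGACGTCA, the cyclic AMP response element, was in 0 of 50 genes against 3.02%, and the full ER stress element, in which CCAAT and CCACG lie 9 bases apart, in 0 against 0.139%. The median GC content of the promoters was 65.0% for the set and 62.7% for genes of the array. These matches describe letters in a window and were not tested.

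None of the 55 genes was called higher or lower in SAHA-treated ADSCs. The question of this comparison was how SAHA changed expression against both kinds of control, and it set the 3 SAHA arrays against the 5 control arrays (EtOH and untreated combined) with limma across all genes. A call required a fold of 1.5 or more together with an adjusted p below 0.05. By this rule 0 of the 55 genes were higher, where 0.438% of all genes were, and 0 were lower, where 0.297% of all genes were. At shares of this size the expected number in a list of 55 is itself under 1, so the absence of calls does not set these genes apart from the rest of the array. The unpaired test named in the study's methods, run on the same arrays, also called 0 of them, and 0.0486% of all genes. At an unadjusted p under 0.05 in limma, 4 genes were higher (7.27%, against 5.82% of all genes) and 2 were lower (3.64%, against 9.58%).

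The size of the differences was small throughout. The log2 fold changes ran from -0.46 for SAR1B to 0.37 for COPA, and no gene reached 0.585, the log2 value of a 1.5-fold change. Their median was 0.03, and that of all 18508 genes was -0.03. The median of the absolute log2 fold changes was 0.15 in the set and 0.13 over all genes. There were 33 genes with a positive (60.0%, against 42.4% of all genes) and 22 with a negative value. Of the 55 genes, 48 were above every array median on every array. The shares over all genes, here and below, were not matched for level. The 95% interval of the log2 fold change stayed inside 1.5-fold in either direction for 42 of the 55 genes (76.4%), a share that was 81.1% over all genes. The 13 others, whose intervals reached that size, were SEC23B, SEC13, SAR1B, SEC16A, TFG, COPA, COPE, COPZ1, SEC61A2, SEC11A, SRP14, SRP19 and SRP54. When the replicate number entered the fit as a block, the count inside 1.5-fold was 34 (61.8%), and the share over all genes was 71.3%.

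**Figure D1:**
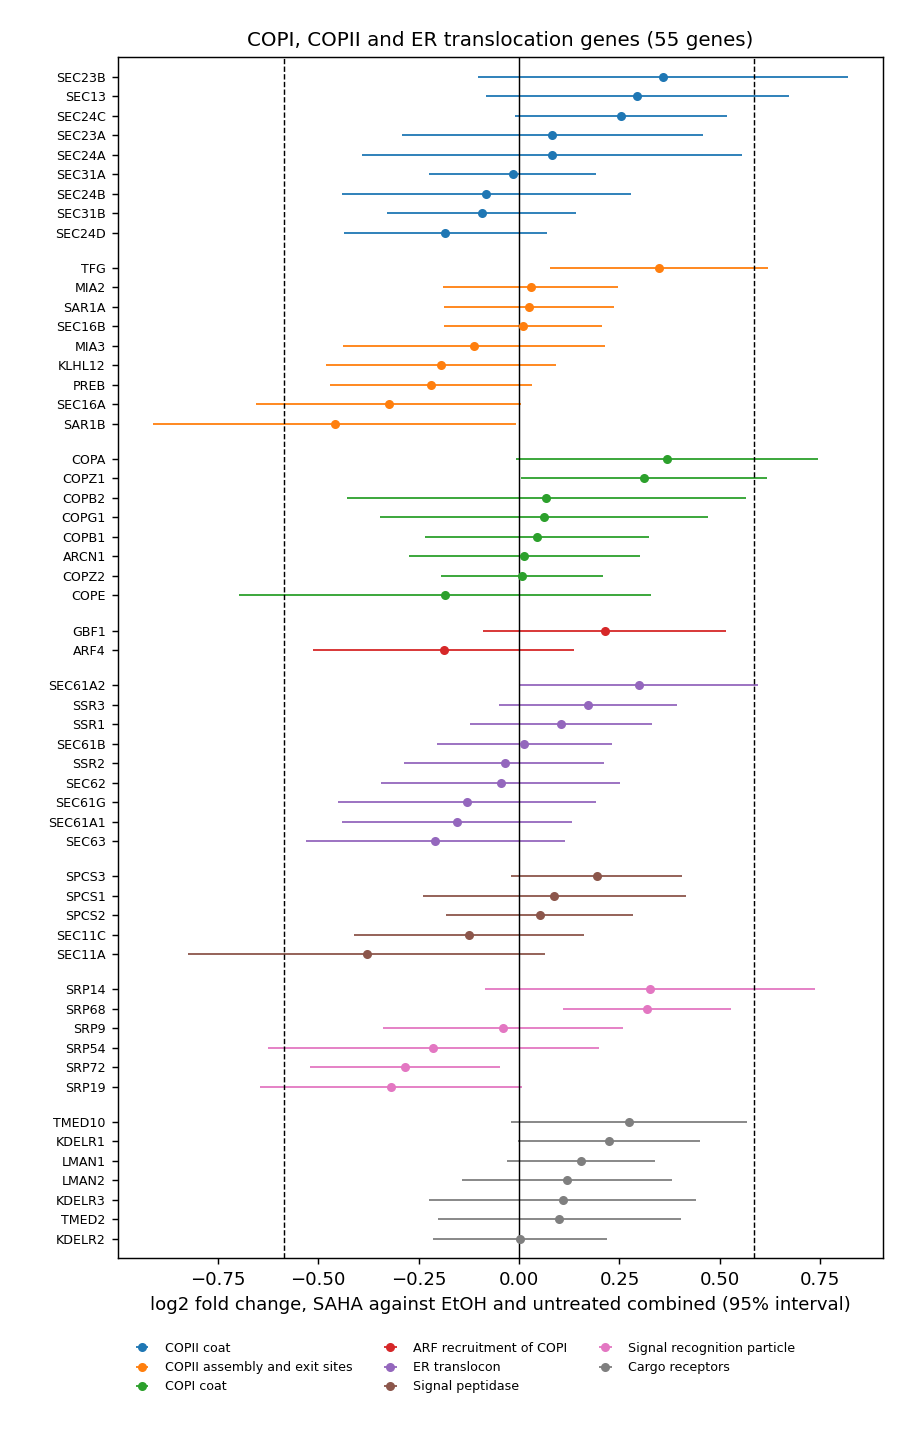
Log2 fold change of each of the 55 genes (points) with its 95% interval from limma (horizontal bars), SAHA (3 arrays) against EtOH and untreated combined (5 arrays), grouped by role; dashed lines mark 1.5-fold. All points lie between -0.46 (SAR1B) and 0.37 (COPA), inside the dashed lines, and 13 intervals reach a dashed line.

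Of the 6 genes with an unadjusted p under 0.05, SRP68 and SRP72 encode partner subunits of SRP that bind each other. SRP68 was at 1.04, 1.13 and 1.03 in untreated cells, 1.04 and 0.97 with EtOH, and 1.40, 1.2 and 1.49 with SAHA. All 3 SAHA arrays were above all controls. Its mean was 1.36 ± 0.15 (SD, n = 3) against 1.04 ± 0.06 (SD, n = 5), which gave a log2 fold change of 0.32 with a standard error (SE) of 0.10 and an adjusted p of 0.151. The value of SRP72 lay in the other direction. It was at 4.29, 4.33 and 4.37 in untreated cells, 4.41 and 4.07 with EtOH, and 3.86, 4.04 and 4.12 with SAHA. SAHA replicate 3 overlapped the lower EtOH array. The means of SRP72 were 4.29 ± 0.13 (SD, n = 5) in the controls and 4.01 ± 0.13 (SD, n = 3) in the SAHA arrays, and its log2 fold change of -0.28 had an SE of 0.11 and an adjusted p of 0.240.

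TFG and SAR1B act at ER exit sites and also differed in sign. TFG, which forms a matrix that holds COPII vesicles near the exit site, was at 3.53, 3.65 and 3.70 in untreated cells, 3.49 and 3.78 with EtOH, and 4.26, 3.87 and 3.80 with SAHA. The SAHA arrays lay above all controls, though the closest values, 3.80 and 3.78, nearly met. The means of TFG were 3.63 ± 0.12 (SD, n = 5) in the controls and 3.98 ± 0.25 (SD, n = 3) in the SAHA arrays, and its log2 fold change of 0.35 had an SE of 0.12 and an adjusted p of 0.212. SAR1B, a GTPase that starts COPII assembly, was at 1.15, 1.77 and 1.36 in untreated cells, 2.18 and 1.58 with EtOH, and 0.98, 1.10 and 1.37 with SAHA. SAHA replicate 3 overlapped the 2 lower untreated arrays, and the EtOH arrays were on average higher than the untreated ones. The means of SAR1B were 1.61 ± 0.40 (SD, n = 5) in the controls and 1.15 ± 0.20 (SD, n = 3) in the SAHA arrays, and its log2 fold change of -0.46 had an SE of 0.20 and an adjusted p of 0.317.

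The last of the 6 were COPZ1, the zeta subunit of coatomer, and SEC61A2, a second gene for the channel-forming subunit of the translocon. COPZ1 was at 2.51, 2.50 and 2.41 in untreated cells, 2.91 and 2.54 with EtOH, and 2.66, 2.88 and 3.12 with SAHA. Of the control arrays, EtOH replicate 1 overlapped SAHA and stood apart from the 4 others. The means of COPZ1 were 2.58 ± 0.20 (SD, n = 5) in the controls and 2.89 ± 0.23 (SD, n = 3) in the SAHA arrays, and its log2 fold change of 0.31 had an SE of 0.14 and an adjusted p of 0.318. SEC61A2 was at 0.06, 0.32 and 0.10 in untreated cells, 0.31 and 0.57 with EtOH, and 0.79, 0.45 and 0.48 with SAHA. The groups overlapped through EtOH replicate 3, and its control values were otherwise all under the highest array median. The means of SEC61A2 were 0.27 ± 0.21 (SD, n = 5) in the controls and 0.57 ± 0.19 (SD, n = 3) in the SAHA arrays, and its log2 fold change of 0.30 had an SE of 0.14 and an adjusted p of 0.324. With the replicate number as a block, TFG and SRP68 kept an unadjusted p under 0.05, so that 2 genes were higher (against 3.44% of all genes) and 0 lower (against 5.28%).

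**Figure D2:**
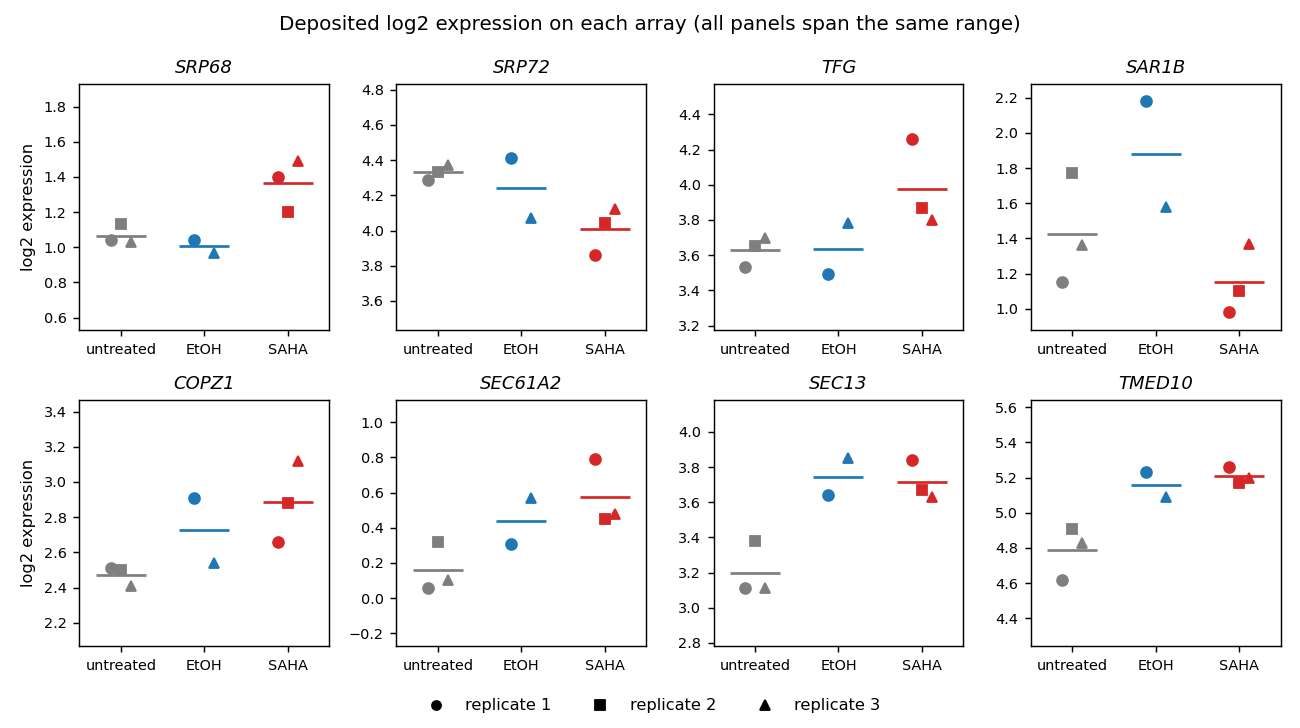
Deposited log2 expression (vertical axis) of 8 genes on each array of untreated, EtOH-treated and SAHA-treated ADSCs; points are arrays, their shape gives the replicate number, and bars are group means. In the SRP68 and TFG panels the SAHA points lie above all 5 controls, while in the SEC13 and TMED10 panels the EtOH points lie with the SAHA points.

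Complete separation of the arrays was another way to look for a difference. In 5 of the 55 genes (9.09%, against 4.21% of all genes) all SAHA arrays were above all controls, and in 0 (against 6.25%) all were below. The 5 were TFG and SRP68, the translocon-associated SSR3, the KDEL receptor gene KDELR1 and LMAN1, which encodes the mannose-binding receptor ERGIC-53. LMAN1 was at 6.17, 6.20 and 6.18 in untreated cells, 6.33 and 6.27 with EtOH, and 6.37, 6.37 and 6.41 with SAHA, a log2 fold change of 0.15 (adjusted p = 0.416). KDELR1 was at 4.67, 4.89 and 4.97 in untreated cells, 5.00 and 4.84 with EtOH, and 5.21, 5.02 and 5.06 with SAHA, a log2 fold change of 0.22 (adjusted p = 0.331). The gaps were narrow, as between 5.02 and 5.00 in KDELR1.

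Taken by role, none of the 8 kinds of machinery had a member that passed the test. In SRP, which pauses translation and brings the ribosome to the ER, the 6 subunits had a median log2 fold change of -0.13, from -0.32 for SRP19 to 0.33 for SRP14. SRP54, the subunit that binds the signal sequence, was at -0.21 with a mean level under the highest array median. In the translocon, the 9 genes had a median of -0.04. SEC61A1, the main channel gene, was at -0.15, SEC63, which couples the channel to the chaperone BiP, was at -0.21, and the translocon-associated genes SSR1 and SSR3 were at 0.10 and 0.17. The 5 signal peptidase genes had a median of 0.05 and ran from -0.38 for the catalytic subunit SEC11A to 0.19 for the accessory subunit SPCS3. The 95% interval of SEC11A, from -0.83 to 0.07, was among the widest, since its control arrays spread from 4.27 to 5.29.

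The COPII and COPI coats were each of mixed sign. Among the 9 COPII coat genes, SEC23B was at 0.36 (95% interval from -0.10 to 0.82) and its relative SEC23A at 0.08, SEC13 was at 0.30, and SEC24D, a cargo adaptor, was at -0.18. The median of the 9 was 0.08. Among the 9 genes of COPII assembly and exit sites the median was -0.11. Here SEC16A, the exit site scaffold, was at -0.32, PREB, the exchange factor that activates SAR1, was at -0.22, and KLHL12, an adaptor of the ubiquitin ligase that enlarges COPII coats for collagen, was at -0.19. MIA3 (TANGO1), which loads procollagen into vesicles, was at -0.11 (95% interval from -0.44 to 0.21). Of the 8 COPI coat genes, 7 had a positive value, from 0.01 for COPZ2 to 0.37 for COPA, and COPE was at -0.18. The interval of COPA ran from -0.01 to 0.74. The 2 recruitment genes measured were at -0.19 (ARF4) and 0.21 (GBF1, which activates ARFs).

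The cargo receptors formed the one role in which every gene had a positive value against the combined controls. Against EtOH alone TMED2 was at -0.10, and against untreated cells alone KDELR2 was at -0.04 and KDELR3 at about 0. The 7 genes ran from 0.003 for KDELR2 to 0.27 for TMED10, with a median of 0.12, and the lowest adjusted p was 0.331 for KDELR1. KDEL receptors retrieve ER chaperones from the Golgi, LMAN1 and LMAN2 bind sugar chains of cargo, and TMED2 and TMED10 are p24 proteins that sort lipid-anchored cargo. The interval of TMED10 ran from -0.02 to 0.57 and that of KDELR2 from -0.21 to 0.22.

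A value averaged over the 3 SAHA arrays hid differences between the replicate numbers. Each SAHA array was set against the mean of the controls with its own number, which for replicate 2 was a single untreated array. The median difference over the 55 genes was -0.12 for replicate 1, -0.06 for replicate 2 and 0.14 for replicate 3, where that of all genes was -0.06, -0.02 and -0.02. In replicate 3, 42 of the 55 genes (76.4%) had a positive difference, against 47.1% of all genes. In replicates 1 and 2 the shares were 43.6% and 45.5%, against 41.9% and 46.1%. The difference was negative in replicate 1 and positive in replicate 3 for 22 genes (40.0%, against 25.9% of all genes), and of the opposite signs for 4 (7.27%, against 20.8%). Since the shares over all genes were not matched for level, whether other genes of similar level shifted likewise was not tested.

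Of the 22 genes, 11 encode coat subunits. The median of the 8 COPI coat genes was -0.15 in replicate 1, 0.19 in replicate 2 and 0.41 in replicate 3, and that of the 9 COPII coat genes was -0.25, 0.14 and 0.18. COPB2, a large coatomer subunit, was at 4.04, 3.77 and 3.59 in untreated cells, 4.48 and 4.08 with EtOH, and 3.53, 4.26 and 4.38 with SAHA. Its differences were -0.73, 0.50 and 0.55. SEC23A was at 4.89, 4.62 and 4.35 in untreated cells, 4.95 and 4.88 with EtOH, and 4.47, 4.92 and 5.08 with SAHA, so that its lowest SAHA array was below all but 1 control and its highest was above all of them. Some other roles had more positive than negative values in replicate 1. Positive differences were found there in 6 of 7 cargo receptors (4 of 7 in replicate 2 and 7 of 7 in replicate 3), 6 of 9 translocon genes (3 and 8 of 9) and 3 of 5 signal peptidase genes (2 and 4 of 5). In SRP the median of replicate 1 was negative, as in the coats (-0.33, 2 of 6 genes positive). It was also negative in COPII assembly and exit sites (-0.24, 4 of 9 positive) and ARF recruitment (-0.20, 0 of 2). These differences between roles were not tested. In 13 genes (23.6%, against 10.7% of all genes) the difference was positive in all 3 numbers, among them TFG, SRP68, SEC24C, SPCS3, KDELR1, LMAN1, TMED2 and TMED10. In 6 (10.9%, against 17.8%) it was negative in all 3, namely SAR1B, PREB, SEC16A, COPE, SEC11A and SRP72. The labels carry the numbers 6, 10 and 16 after the letter p for replicates 1, 2 and 3 in each group, and what they stand for was not tested. Without SAHA replicate 3 the median log2 fold change of the 55 genes was -0.02 in place of 0.03.

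**Figure D3:**
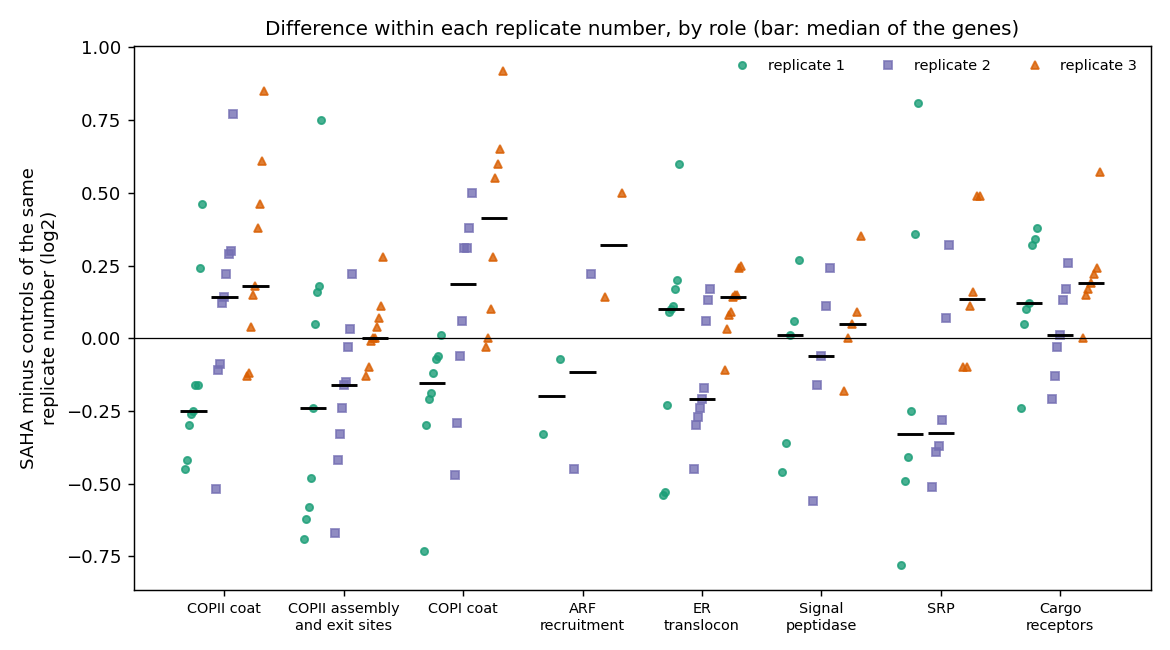
Difference in log2 expression between each SAHA array and the mean of the controls with the same replicate number (vertical axis), for each gene, by role (horizontal axis); colour and shape give the replicate number and bars are medians over the genes of a role. For the COPI coat the medians are -0.15, 0.19 and 0.41. Of the 7 cargo receptors, 6 lie above 0 in replicate 1, 4 in replicate 2 and 7 in replicate 3.

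Against each control group alone, 0 of 55 genes were called in either direction. The contrast with EtOH, the vehicle, asks what SAHA adds to its solvent, and the background of calls there was 0.0864% of all genes higher and 0.0162% lower. At an unadjusted p under 0.05, SPCS3 and SRP68 were higher (3.64%, against 4.53% of all genes), and SAR1B, PREB and SEC16A were lower (5.45%, against 8.41%). SAR1B had a log2 fold change of -0.73 in this contrast (adjusted p = 0.243 from limma), and SEC16A of -0.53 (adjusted p = 0.238). Both are exit site genes. In SEC16A both EtOH arrays were above all untreated arrays, and in SAR1B the EtOH mean was higher but the arrays overlapped. Against untreated cells, where 0.454% of all genes were called higher and 0.335% lower, 8 genes had a positive value at an unadjusted p under 0.05 (14.5%, against 6.62%). These were SEC24C, SEC13, TFG, COPZ1, SEC61A2, SRP68, LMAN1 and TMED10. SRP72 alone had a negative one (1.82%, against 9.89%).

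EtOH itself was set against untreated cells as the background of the vehicle. In limma 0 of 55 genes were called higher, as were 0% of all genes, and 0 were called lower, again with 0% of all genes. At an unadjusted p under 0.05, 6 genes were higher with EtOH (10.9%, against 5.53% of all genes), namely SEC13, COPB1, SPCS2, SRP9, TMED2 and TMED10, and COPG1 and COPE were lower (3.64%, against 4.21%). These contrasts share arrays, so their values are given side by side. SEC13, a subunit of the outer COPII coat, was at 3.11, 3.38 and 3.11 in untreated cells, 3.64 and 3.85 with EtOH, and 3.84, 3.67 and 3.63 with SAHA. Both treated groups were above all untreated arrays. The log2 fold change of SEC13 was 0.51 for SAHA against untreated (SE of 0.12 and adjusted p of 0.0824), 0.55 for EtOH against untreated (SE of 0.13 and adjusted p of 0.422) and -0.03 for SAHA against EtOH (SE of 0.13 and adjusted p of 0.940). TMED10 was at 4.62, 4.91 and 4.83 in untreated cells, 5.23 and 5.09 with EtOH, and 5.26, 5.17 and 5.20 with SAHA, again with both treated groups above untreated. Its log2 fold change was 0.42 for SAHA against untreated (adjusted p = 0.103), 0.38 for EtOH against untreated (adjusted p = 0.432) and 0.05 for SAHA against EtOH (adjusted p = 0.898). In these 2 genes, chosen after their values were seen, the vehicle's values lay near those of SAHA.

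Several roles are filled by pairs of closely related genes, and their difference on an array is free of any shift of the whole array. Only changes in this difference were read, not its level. For 13 such pairs, SAHA was set against the 5 controls by a two-sided exact permutation test, which can give no p below 0.0179. In 0 of 13 pairs was the p under 0.05 after Benjamini-Hochberg adjustment over the pairs, a threshold that 1 pair alone could not pass in this design. The unadjusted exact p was under 0.05 in 2 pairs. SEC24C minus SEC24D, both cargo adaptors of the COPII coat, was at -4.66, -5.04 and -5.12 in untreated cells, -5.03 and -4.53 with EtOH, and -4.44, -4.39 and -4.49 with SAHA. All SAHA arrays were above all controls, and the change in the difference was 0.44 (exact p = 0.0357, adjusted p = 0.174). KDELR1 minus KDELR2 was at -1.45, -1.40 and -1.40 in untreated cells, -1.26 and -1.23 with EtOH, and -1.08, -1.13 and -1.16 with SAHA. The SAHA arrays were again above all controls, with a change of 0.22 (exact p = 0.0357, adjusted p = 0.174), and the EtOH arrays lay between the other groups. This test exchanged arrays across the replicate numbers, which had been centred. With differences taken within the replicate number, the changes were 0.46 for SEC24C minus SEC24D and 0.23 for KDELR1 minus KDELR2. The exact p was then 0.111 in both pairs (adjusted p = 0.361). In both, the SAHA array was the highest in every replicate number, so no other arrangement could give a larger rise. The few arrangements within the numbers allow no exact p under 0.05. In SAR1A minus SAR1B the groups overlapped, since SAHA replicate 3, at 3.70, was below untreated replicate 1, at 3.74. Its change was 0.48 (exact p = 0.0536, adjusted p = 0.174). The other 10 pairs had exact p-values from 0.0536 to 0.589.

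**Figure D4:**
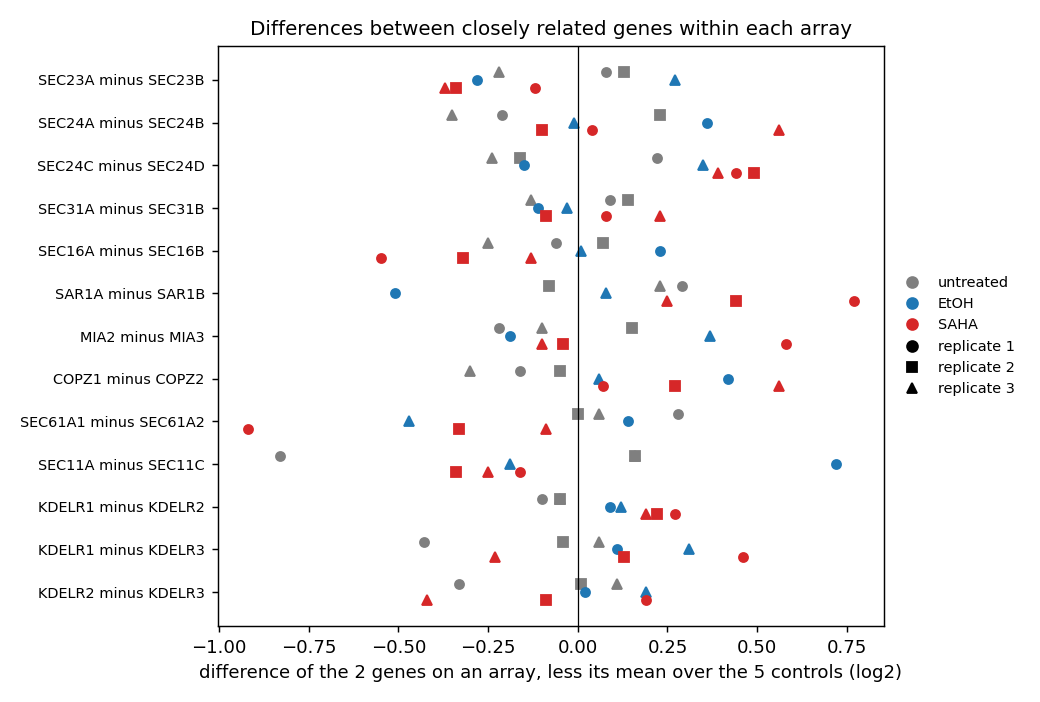
Difference in log2 expression between the 2 genes of each pair on each array, less the mean of that difference over the 5 control arrays (horizontal axis); colour gives the group and shape the replicate number. In SEC24C minus SEC24D and KDELR1 minus KDELR2 the SAHA points lie to the right of all control points.

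The genes with TGACGTGG at their start were set beside the rest of the list. The 12 genes with a site had a median log2 fold change of 0.07, with values from -0.32 (SEC16A) to 0.37 (COPA), 9 of them positive, and a lowest adjusted p of 0.336. The 38 other genes with a promoter at hand had a median of 0.01, with 21 positive. Over all 156 genes of the array with TGACGTGG at their start, the median was -0.02. The factors that bind the element are not members of the list and were looked at after their values were seen. XBP1 fell, from 2.71 ± 0.21 (SD, n = 5) to 2.02 ± 0.03 (SD, n = 3), with a fold change of -0.69 on the log2 scale (adjusted p = 0.0304). With the replicate number as a block its adjusted p was 0.127, and over 18 alternatives it ran from 0.0132 to 0.186. It was between 0.0508 and 0.124 when untreated replicate 2 or 3, EtOH replicate 1 or any 1 SAHA array was left out. ATF6 was at 2.70 ± 0.17 (SD, n = 3) against 3.14 ± 0.37 (SD, n = 5), a log2 fold change of -0.44 (adjusted p = 0.310). The array does not read splicing of XBP1 or cleavage of ATF6, which activate these factors, and a part of either in the members' values was not tested.

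A further 85 genes of the same route were listed, of which 80 were measured, and none had an adjusted p under 0.05. At an unadjusted p under 0.05, 6 were higher (7.50%, against 5.82% of all genes) and 10 were lower (12.5%, against 9.58%). The counts given for each list below follow the same rule, under which lower values outnumber higher ones over the whole array. The 16 further cargo receptors had a median log2 fold change of -0.03 (2 higher and 1 lower), and the 21 tethers and SNAREs of vesicle fusion one of 0.08 (3 higher and 1 lower). The 13 genes of the EMC and GET complexes, which insert membrane proteins into the ER, had a median of -0.18 (0 higher and 4 lower). A list of 10 genes of the SRP receptor, the further translocon and ER chaperones had one of -0.12 (0 higher and 3 lower). Its 3 lower genes were SRPRB at -0.38 (adjusted p = 0.162 from limma) and the chaperone genes HSPA5 at -0.41 (adjusted p = 0.112) and HYOU1 at -0.38 (adjusted p = 0.114). The 13 TRAPP genes were at a median of -0.07 (1 higher and 1 lower) and the 7 further genes of the ARF cycle at -0.08 (0 and 0). The widest of these values was 0.57 for TMED3, a p24 protein (SE of 0.13 and adjusted p of 0.0776).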

How the data were processed

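The deposited values were log2 expression. The study's methods name RMA normalization of the Clariom S arrays, but not the centring of replicate numbers that the values also show. No further normalization or filter was applied here for the main values. The arrays, not reads, limit the precision: the median standard error was 0.13 for the set and 0.12 over all genes. Linear models in limma 3.58.1 (R 4.3.3) compared SAHA with EtOH and untreated combined, as in the study's methods, and a 3-group fit gave the other contrasts. Adjusted p-values are Benjamini-Hochberg values from limma over all 18508 genes. Intervals are 95% intervals from limma, standard errors belong to fold changes, and SDs are between arrays. Exact tests used Python 3.11.15. The fits were tested on simulated data.

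Members and lists were chosen with earlier results of these data known. Members with an unadjusted p under 0.05 against the combined controls were named with all values; others named with array values were chosen after these were seen. Of the 14 related pairs listed, 13 had both genes measured. Groups share replicate numbers, but centring of these numbers before deposit, which the methods do not name, prevents a check of the pairing by correlation, so values with a replicate block are given beside what it changes. The block leaves 4 residual degrees of freedom, where the fit without it counts 6 although the numbers had been centred, which tends to make its p-values smaller. Alternatives were other scalings, variance models, array weights, a filter on dim genes, each array or replicate number left out, and other controls. Raw array files, proteomics and qPCR were not used here.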

Additional observations from a re-analysis of the deposited data

Results flagged for a closer look

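Within the 5 control arrays, 1 array stood apart from the other 4 in 4 of the 55 genes (7.27%, against 4.50% of all 18508 genes), measured as the gap to its nearest neighbour divided by the whole range and set against Dixon's 95% limit. Chance gives about 1 such case in 20 groups where the values are exchangeable, which 2 kinds of control with centred replicate numbers need not be. In SEC31A, EtOH replicate 3 was lowest at 5.53 against 5.71 to 5.74 (ratio 0.834). In SEC24A, untreated replicate 3 was lowest at 1.51 against 2.26 to 2.51 (0.757). In COPZ1, EtOH replicate 1 was highest at 2.91 against 2.41 to 2.54 (0.734). In GBF1, untreated replicate 1 was highest at 4.47 against 3.96 to 4.10 (0.726).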

How the results depend on the processing

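With the replicate block, the count of genes at an unadjusted p under 0.05 against the combined controls went from 4 to 2 higher and from 2 to 0 lower; the block counts fewer residual degrees of freedom. Counts at an unadjusted p were not run with the block for the other contrasts. Under the 24 alternatives run against the combined controls and the 15 run for each other contrast, 0 of the 55 genes were called. The adjusted p of the related pairs says nothing about stability, since 1 pair alone could not pass. Unadjusted exact p-values could not go below 0.10 with 1 kind of control, and quantile normalization moved the change in SEC24C minus SEC24D from 0.44 to 0.58. The 6 genes named first kept their sign under 18 alternatives, with adjusted p from 0.0763 (SRP68, quantile normalization) to 0.757 (SEC61A2). The median log2 fold change of the set stayed between -0.02 (without SAHA replicate 3) and 0.07 (each array centred on its median). With 8 arrays, the intervals of 13 genes reached 1.5-fold, and the 5 genes whose means lie at or under the highest array median have little room to fall.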
